A study of Homo sapiens with 6 samples.

Results

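Collagens, laminins and integrins are the matrix proteins around cells and the receptors that hold cells to them. The genes described here were taken by name alone from a table of all measured genes: protein-coding genes for collagen chains, laminin alpha, beta and gamma chains, integrin alpha and beta chains, the nidogens, fibronectin (FN1), the fibrillins, perlecan (HSPG2), agrin (AGRN) and SPARC. The name rule found 51 genes of the 14538 in the table, of which 12824 were protein-coding. They were 20 collagen chains, 9 laminin chains, 15 integrin chains, 4 linker proteins of the basement membrane, and 3 genes for fibronectin and the fibrillins. SPARC was not analysed here.

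The cells were HEK293T, a line from embryonic kidney, in which both copies of INTS8 carry miniAID (INTS8-AID). This tag is a degron through which the plant hormone auxin directs destruction of the tagged protein, and INTS8 belongs to Integrator, which ends transcription by RNA polymerase II early at many genes. Both groups carried the tag, with 3 libraries from cells without auxin and 3 from cells with 100 µM auxin, in a 48 h experiment on total RNA depleted of ribosomal RNA. The labels state neither whether the line is 1 clone nor whether libraries of a group are separate cultures, and the p-values may then measure technical spread only. Auxin-treated cells without the tag were not analysed here.

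The values are those of the authors' deposited table, a comparison of auxin with no auxin that holds no values per library, so the depth of each library and the spread between libraries are unknown. Which group is the numerator of its fold changes is not stated in the header, and auxin over no auxin was assumed by convention. Under the opposite reading all directions given here would turn. A gene is said to have risen or fallen where its adjusted p was under 0.05 over all genes. Group levels were derived from the mean normalized level and the fold change, and standard errors (after ±) from the log2 fold change and its p-value. INTS8 mRNA stood at 1.28-fold in the authors' deposited table, which does not show whether the protein was lost.

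Basement membranes are thin sheets of matrix under epithelia and around vessels, built from a network of type IV collagen and a network of laminin, joined by nidogen, perlecan and agrin. Type IV collagen chains assemble in trimers, a widespread one of COL4A1 and COL4A2 chains, one of COL4A3, COL4A4 and COL4A5 chains known from the filter of the kidney glomerulus, and one with COL4A5 and COL4A6 chains. Each laminin is a trimer of an alpha, a beta and a gamma chain. Integrins are pairs of an alpha and a beta chain that bind these proteins outside the cell and link to actin inside it.

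More of these genes fell than rose. At an adjusted p under 0.05 in the authors' deposited table, 13 of the 51 rose, 24 fell and 14 did not pass. Of all listed genes, 27.8% rose and 28.9% fell, and of protein-coding genes 28% rose and 31.9% fell, against 25.5% and 47.1% of the 51. Most changes were moderate, since 1 member rose and 2 fell by at least 2-fold, or 1.96% and 3.92%, against 7.88% and 1.36% of all listed genes and 7.06% and 1.43% of protein-coding genes. The median log2 fold change was -0.15 for the 51 and -0.02 for protein-coding genes. Of the 45 members at a mean level of 100 or more, 12 rose and 24 fell, and among protein-coding genes of that level 28.1% rose and 33.9% fell.

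**Figure D1:**
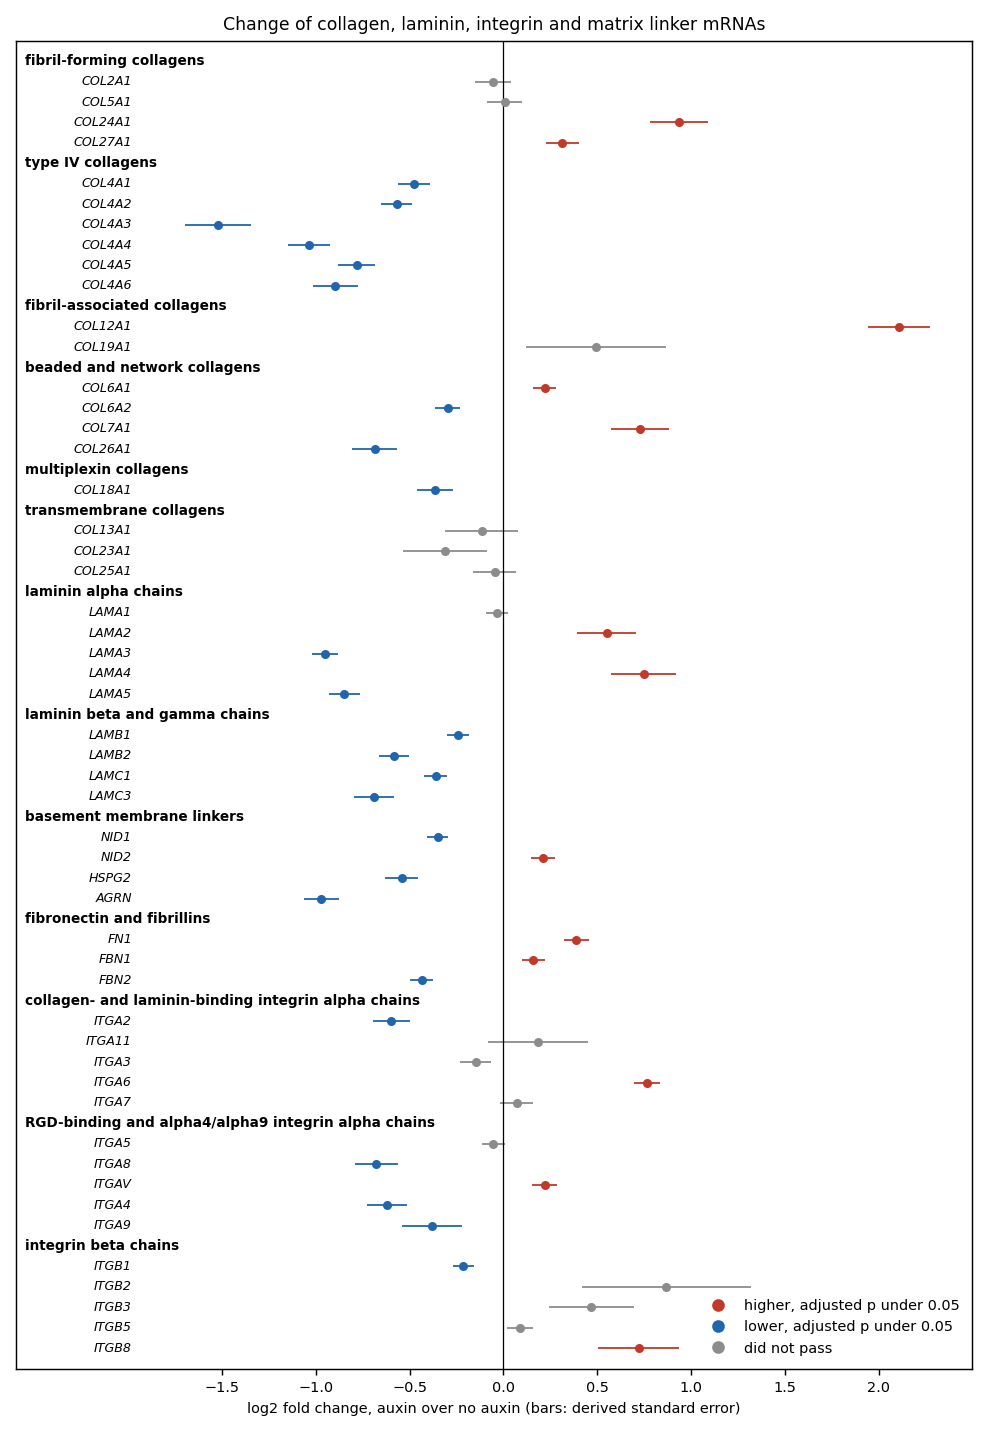
Log2 fold change of each of the 51 genes (points, horizontal axis) with its derived standard error (bars), grouped by role and coloured by whether the adjusted p was under 0.05. All 6 type IV collagen chains and all 4 laminin beta and gamma chains lie to the left of 0, and COL12A1 lies furthest to the right at 2.11.

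Among the type IV collagens, laminins and linkers together, a grouping made after the values were seen, 15 of 19 fell, 3 rose and 1 did not pass in the authors' deposited table, with a median log2 fold change of -0.57. Among the other 32 members 9 fell, 10 rose and 13 did not pass, with a median of 0.04. Of protein-coding genes 31.9% fell and 28% rose, with a median of -0.02. The summed derived level of the 19 was 59036 without auxin and 42496 with auxin, and that of the 32 was 48854 and 50128. The difference between these sets was not tested.

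**Figure D2:**
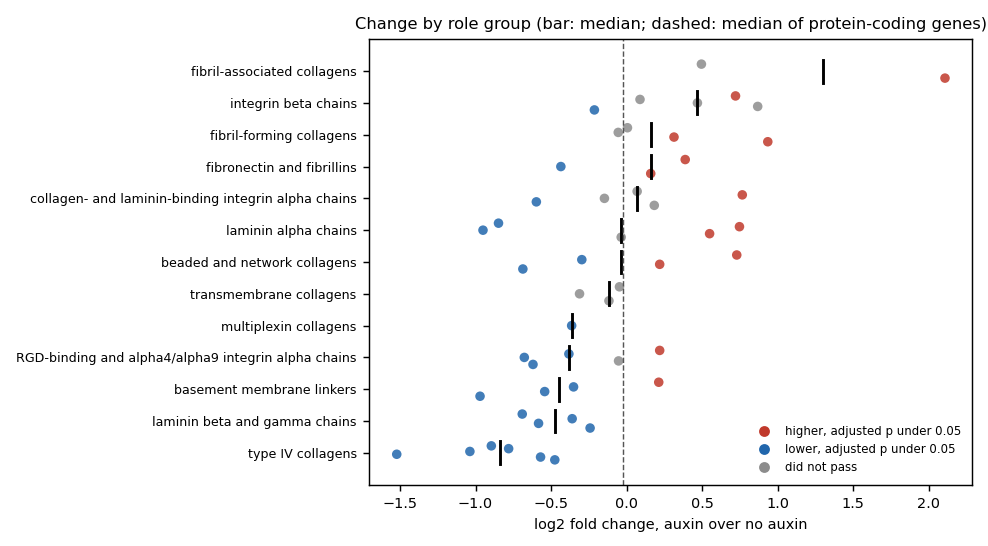
Log2 fold change of each gene (points) by role group, with the group median (bar) and the median of protein-coding genes (dashed line). The group medians run from -0.84 for type IV collagens to 1.30 for the 2 fibril-associated collagens.

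All 6 type IV collagen chains fell, from 0.719-fold for COL4A1 to 0.348-fold for COL4A3, and the median log2 fold change was -0.84. By comparison, 31.9% of protein-coding genes fell. COL4A2 had the highest level per kilobase of the 6, 859.9 without auxin, with derived levels of 5543 without auxin and 3735 with auxin (log2 -0.57 ± 0.081 with adjusted p 1.62e-11 per the authors' deposited table). Its partner COL4A1 was at 2660 and 1914 (log2 -0.48 ± 0.086 with adjusted p 1.7e-07 per the authors' deposited table). Both chains of the widespread trimer thus fell, and the difference between their falls was not tested. COL4A3, mutated in Alport syndrome and the target of antibodies in Goodpasture disease, was at 202 without auxin and 70.3 with auxin (log2 -1.52 ± 0.18 with adjusted p 9.05e-17 per the authors' deposited table). COL4A4 was at 543 and 265 (log2 -1.04 ± 0.11 with adjusted p 3.05e-19 per the authors' deposited table). These 2 chains were the only members to fall by at least 2-fold, and they had the lowest levels per kilobase of the 6, 25.1 and 54.4 without auxin. COL4A5, the X-linked Alport gene, was at 1005 and 585 (log2 -0.78 ± 0.099 with adjusted p 2.13e-14 per the authors' deposited table). COL4A6 was at 548 and 294 (log2 -0.90 ± 0.12 with adjusted p 5.83e-13 per the authors' deposited table). The 4 chains COL4A3 to COL4A6 all had lower fold values than COL4A1 and COL4A2, a difference that was not tested.

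The 6 genes lie as 3 pairs, each on a chromosome of its own, that start back to back and are transcribed away from each other. By the listed starts in hg38, COL4A1 begins at position 110307157 of chromosome 13 on the minus strand. COL4A2 begins at 110307284 on the plus strand, with 126 bases between them. In GENCODE 29 the COL4A2 gene begins 1472 bases before its listed start and overlaps COL4A1 on the opposite strand. COL4A4 starts at 227164205 of chromosome 2 on the minus strand and COL4A3 at 227164624 on the plus strand, 418 bases apart, and COL4A6 and COL4A5 start at 108439472 and 108439838 of chromosome X, 365 bases apart. Within a pair the fold changes were 0.719 and 0.674 for COL4A1 and COL4A2, 0.487 and 0.348 for COL4A4 and COL4A3, and 0.538 and 0.582 for COL4A6 and COL4A5 in the authors' deposited table. Both genes of every pair fell.

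**Figure D3:**
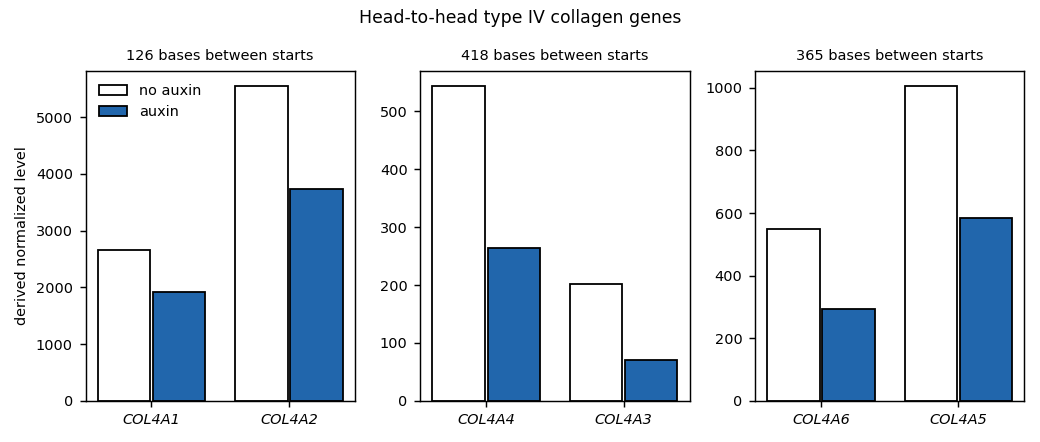
Derived normalized level (vertical axis, from 0) without auxin (white) and with auxin (blue) for the 3 head-to-head pairs of type IV collagen genes, with the number of bases between their starts. Levels have no error bars because the table holds no values per library, and in each pair both genes are lower with auxin.

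The stretches between these genes are shown because both genes of a pair share one. Each is the RefSeq promoter window (GRCh38.p14) from 250 bases before to 50 after the start of the gene, written 5′ to 3′ on the strand of that gene, and 41 of the 51 members had such a window. The COL4A1 window, chr13:110307108-110307407 on the minus strand, also holds the start of COL4A2. The other windows are COL4A4 (chr2:227164156-227164455, minus strand), COL4A3 (chr2:227164374-227164673, plus strand), COL4A6 (chrX:108439409-108439708, minus strand, with its start 14 bases from that in the authors' deposited table) and COL4A5 (chrX:108439588-108439887, plus strand). Capitals mark matches on either strand to the GC box GGGCGG, the CCAAT box, the TATA box TATAAA, the AP-1 motif TGANTCA or the CTC box CCCTNCCCC.
COL4A1: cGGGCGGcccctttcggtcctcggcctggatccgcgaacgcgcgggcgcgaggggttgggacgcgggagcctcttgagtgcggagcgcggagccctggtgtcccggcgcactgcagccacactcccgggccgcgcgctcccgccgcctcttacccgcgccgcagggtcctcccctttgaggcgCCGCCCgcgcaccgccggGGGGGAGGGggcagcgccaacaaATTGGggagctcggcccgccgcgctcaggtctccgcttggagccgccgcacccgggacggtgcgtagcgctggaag
COL4A4: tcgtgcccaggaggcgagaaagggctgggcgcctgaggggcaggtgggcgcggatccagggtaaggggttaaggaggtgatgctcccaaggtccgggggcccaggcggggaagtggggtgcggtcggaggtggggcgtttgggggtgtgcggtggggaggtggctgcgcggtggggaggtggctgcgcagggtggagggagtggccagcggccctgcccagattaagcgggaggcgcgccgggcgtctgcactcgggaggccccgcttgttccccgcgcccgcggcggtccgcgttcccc
COL4A3: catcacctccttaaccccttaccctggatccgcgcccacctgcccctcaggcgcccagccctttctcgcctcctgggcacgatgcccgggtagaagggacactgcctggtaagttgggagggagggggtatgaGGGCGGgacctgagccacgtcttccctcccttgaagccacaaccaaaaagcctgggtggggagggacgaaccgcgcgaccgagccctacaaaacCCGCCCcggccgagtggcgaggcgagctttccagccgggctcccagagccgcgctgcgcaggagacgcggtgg
COL4A6: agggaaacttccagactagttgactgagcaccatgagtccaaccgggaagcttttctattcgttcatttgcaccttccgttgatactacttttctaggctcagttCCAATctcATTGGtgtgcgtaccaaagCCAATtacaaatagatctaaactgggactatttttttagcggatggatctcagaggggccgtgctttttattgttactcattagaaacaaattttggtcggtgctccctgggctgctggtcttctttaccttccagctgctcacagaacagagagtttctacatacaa
COL4A5: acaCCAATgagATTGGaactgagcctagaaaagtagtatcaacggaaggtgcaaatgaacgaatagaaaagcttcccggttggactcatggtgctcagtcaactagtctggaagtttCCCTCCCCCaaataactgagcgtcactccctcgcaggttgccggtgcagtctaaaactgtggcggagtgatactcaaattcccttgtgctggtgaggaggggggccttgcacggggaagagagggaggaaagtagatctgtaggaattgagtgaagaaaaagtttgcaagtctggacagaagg
The COL4A1 window held 2 GC boxes, 1 CCAAT box and 1 CTC box, and the COL4A3 window 2 GC boxes. The COL4A4 window held 0 matches to any of these motifs. The COL4A6 and COL4A5 windows held 3 and 2 CCAAT boxes, and the latter 1 CTC box, and they overlap, so matches in the overlap count in both. Matches to TATAAA and TGANTCA numbered 0 in each of the 5 windows. Of 27305 promoter windows of the same length, 44.6% held GGGCGG, 35.7% CCAAT, 11.95% TATAAA, 7.76% TGANTCA and 10.7% CCCTNCCCC on either strand. No motif was found in all 5 windows. The GC content was 76.7% for COL4A1, 74.0% for COL4A4, 67.7% for COL4A3, 43.7% for COL4A6 and 49.3% for COL4A5. The windows of the X chromosome pair were the poorest in G and C. A relation of motifs or GC content to the changes was not tested.

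Laminin chains fell in 6 of 9 cases and rose in 2, beside 31.9% and 28% of protein-coding genes. All 4 beta and gamma chains fell. LAMC1, the gamma chain of most laminins, had the highest level per kilobase of the 9, 1389 without auxin, with derived levels of 11013 without auxin and 8581 with auxin (log2 -0.36 ± 0.061 with adjusted p 1.32e-08 per the authors' deposited table). LAMB1 was at 4147 and 3509 (log2 -0.24 ± 0.059 with adjusted p 0.000121 per the authors' deposited table). LAMC1 and LAMB1, which share several laminin trimers, thus both fell. LAMB2, the beta chain of mature glomerular and neuromuscular basement membranes, was at 2887 and 1927 (log2 -0.58 ± 0.079 with adjusted p 9.01e-13 per the authors' deposited table). LAMC3 was at 990.4 and 614 (log2 -0.69 ± 0.11 with adjusted p 2.97e-10 per the authors' deposited table).

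The 5 laminin alpha chains, which carry the cell-binding domains, went both ways. LAMA5, the widespread alpha chain of adult tissues, was at 4765 without auxin and 2647 with auxin (log2 -0.85 ± 0.082 with adjusted p 5.22e-24 per the authors' deposited table). LAMA3, the alpha chain of skin and other epithelia, was at 2640 and 1366 (log2 -0.95 ± 0.068 with adjusted p 5.58e-43 per the authors' deposited table). Both of these chains fell. LAMA1, the alpha chain of early embryonic basement membranes, was at 2834 and 2766 and did not pass (log2 -0.04 ± 0.059 with adjusted p 0.629 per the authors' deposited table). Set per kilobase of listed transcript, the LAMA5 level went from 417 to 232 and the LAMA1 level from 294 to 287. By these levels LAMA5 stood above LAMA1 without auxin and below it with auxin, an order that was not tested. LAMA2, the alpha chain of muscle and peripheral nerve, rose from 110.4 to 162 (log2 0.55 ± 0.16 with adjusted p 0.0013 per the authors' deposited table).

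LAMA4, an alpha chain of vessel walls, rose from 116 to 196 (log2 0.75 ± 0.17 with adjusted p 4.92e-05 per the authors' deposited table), but the table lists a short model for it. That model runs from 112253782 to 112254578 on chromosome 6, minus strand, in hg38, with a transcript of 647 bases. It spans 797 bases, or 0.545% of the LAMA4 gene in GENCODE 29, begins 361 bases inside the 5′ end of the gene and matches a transcript of 2 exons there to within 4 bases in total. COL19A1, a fibril-associated collagen, is listed in the same way, with a transcript of 589 bases and a span of 3.64% of its gene that begins 845 bases from the 5′ end. It was at 17.4 and 24.6 and did not pass (log2 0.50 ± 0.37 with adjusted p 0.256 per the authors' deposited table). Whether the authors counted reads over these short models or over the whole genes is not known here. From the LAMA4 value the laminin mRNA and a short RNA from the start of the gene cannot be told apart. An antisense gene and a protein-coding gene on the opposite strand also overlap the listed LAMA4 model in GENCODE 29. Their reads could not be separated from LAMA4 reads if strand was not used in counting, which is not known here. The integrin chain ITGA9 has a model with 47.8% of its gene span. Without models shorter than 1000 bases, a choice made after the data were seen, 12 members rose and 24 fell.

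The 4 linkers fell with 1 exception, which rose, beside 31.9% of protein-coding genes that fell and 28% that rose. AGRN, which clusters acetylcholine receptors at the nerve-muscle synapse and binds laminin in the glomerulus, went from 5838 without auxin to 2980 with auxin (log2 -0.97 ± 0.095 with adjusted p 2.41e-23 per the authors' deposited table). NID1, which had the highest level per kilobase of the 4 linkers, was at 10184 and 7986 (log2 -0.35 ± 0.057 with adjusted p 3.03e-09 per the authors' deposited table). HSPG2, the heparan sulfate proteoglycan perlecan, was at 1249 and 857 (log2 -0.54 ± 0.087 with adjusted p 2.93e-09 per the authors' deposited table). These 3 linkers all fell. NID2, the second nidogen, rose from 1762 to 2042 (log2 0.21 ± 0.064 with adjusted p 0.00206 per the authors' deposited table). The nidogens, which both bridge laminin and type IV collagen, thus moved in opposite directions, and NID1 had the higher level also with auxin, at 1374 per kilobase with auxin against 405 for NID2.

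Chains of the other collagens went both ways. COL12A1, a fibril-associated collagen of tendon and other dense tissue, was the only member to rise by at least 2-fold, from a derived level of 80.9 without auxin to 349 with auxin (4.31-fold, log2 2.11 ± 0.16 with adjusted p 1.11e-36 per the authors' deposited table). Its gene runs from 75084326 to 75206053 of chromosome 6, on the minus strand, in hg38. Its level per kilobase was 6.90 without auxin and 29.8 with auxin, rank 48 and rank 43 of the 51 genes. Its RefSeq promoter window (chr6:75206004-75206303, minus strand, GRCh38.p14), shown because this gene rose most, held 2 GC boxes and 0 matches to the other motifs.
COL12A1: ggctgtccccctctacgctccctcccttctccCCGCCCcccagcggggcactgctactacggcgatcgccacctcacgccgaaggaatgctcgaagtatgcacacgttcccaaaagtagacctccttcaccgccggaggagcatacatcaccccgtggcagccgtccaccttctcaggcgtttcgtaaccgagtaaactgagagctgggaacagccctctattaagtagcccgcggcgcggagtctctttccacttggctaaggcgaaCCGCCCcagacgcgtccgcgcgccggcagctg
Fibril-forming collagens make the banded fibrils of connective tissue, and 4 of 11 such chains were measured. Of these 2 rose and 0 fell, beside 28% and 31.9% of protein-coding genes. COL24A1 rose from 113 to 217 (log2 0.94 ± 0.15 with adjusted p 4.5e-09 per the authors' deposited table), and COL27A1, a cartilage collagen, from 2459 to 3057 (log2 0.31 ± 0.086 with adjusted p 0.000677 per the authors' deposited table). COL2A1, the main collagen of cartilage, and COL5A1, which limits fibril width, had mean levels of 2032 and 863 and did not pass (adjusted p 0.644 and 0.963 per the authors' deposited table). The 2 chains COL1A1 and COL1A2 of the main collagen of skin and bone were not analysed here.

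Beaded and network collagens had 4 of 11 chains measured. Of these 2 rose and 2 fell, beside 28% and 31.9% of protein-coding genes. COL6A1, a chain of the beaded microfibrils around cells, had the highest level per kilobase of all 51 genes in both groups, 2223 without auxin and 2589 with auxin. Its derived level rose from 9345 to 10881 (log2 0.22 ± 0.060 with adjusted p 0.000615 per the authors' deposited table). COL6A2, the chain that assembles with it, fell from 2046 to 1666 (log2 -0.30 ± 0.067 with adjusted p 2.91e-05 per the authors' deposited table). These chains of 1 trimer thus moved in opposite directions, and no other chain of collagen VI was among the 51 genes. COL7A1, which forms the anchoring fibrils under the epidermis, rose from 549 to 911 (log2 0.73 ± 0.15 with adjusted p 7.23e-06 per the authors' deposited table), and COL26A1 fell from 429 to 267 (log2 -0.69 ± 0.12 with adjusted p 5.2e-08 per the authors' deposited table). COL18A1, a basement membrane collagen and the source of endostatin, fell from 4085 to 3175 (log2 -0.36 ± 0.096 with adjusted p 0.000411 per the authors' deposited table). The 3 transmembrane collagens did not pass, with fold values of 0.968 for COL25A1 (mean level 1103), 0.922 for COL13A1 and 0.806 for COL23A1 in the authors' deposited table.

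FN1, the fibronectin of cell-assembled fibrils and a ligand of RGD-binding integrins, rose from 1803 to 2361 (log2 0.39 ± 0.066 with adjusted p 1.45e-08 per the authors' deposited table). FBN1, the fibrillin mutated in Marfan syndrome, rose from 2325 to 2599 (log2 0.16 ± 0.063 with adjusted p 0.0204 per the authors' deposited table). FBN2, the fibrillin of embryonic microfibrils, fell from 5574 to 4124 (log2 -0.43 ± 0.062 with adjusted p 1.38e-11 per the authors' deposited table). The fibrillins thus moved in opposite directions. FBN2 had the higher level per kilobase in both groups, at 510.2 and 377, against 198 and 221 for FBN1.

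**Figure D4:**
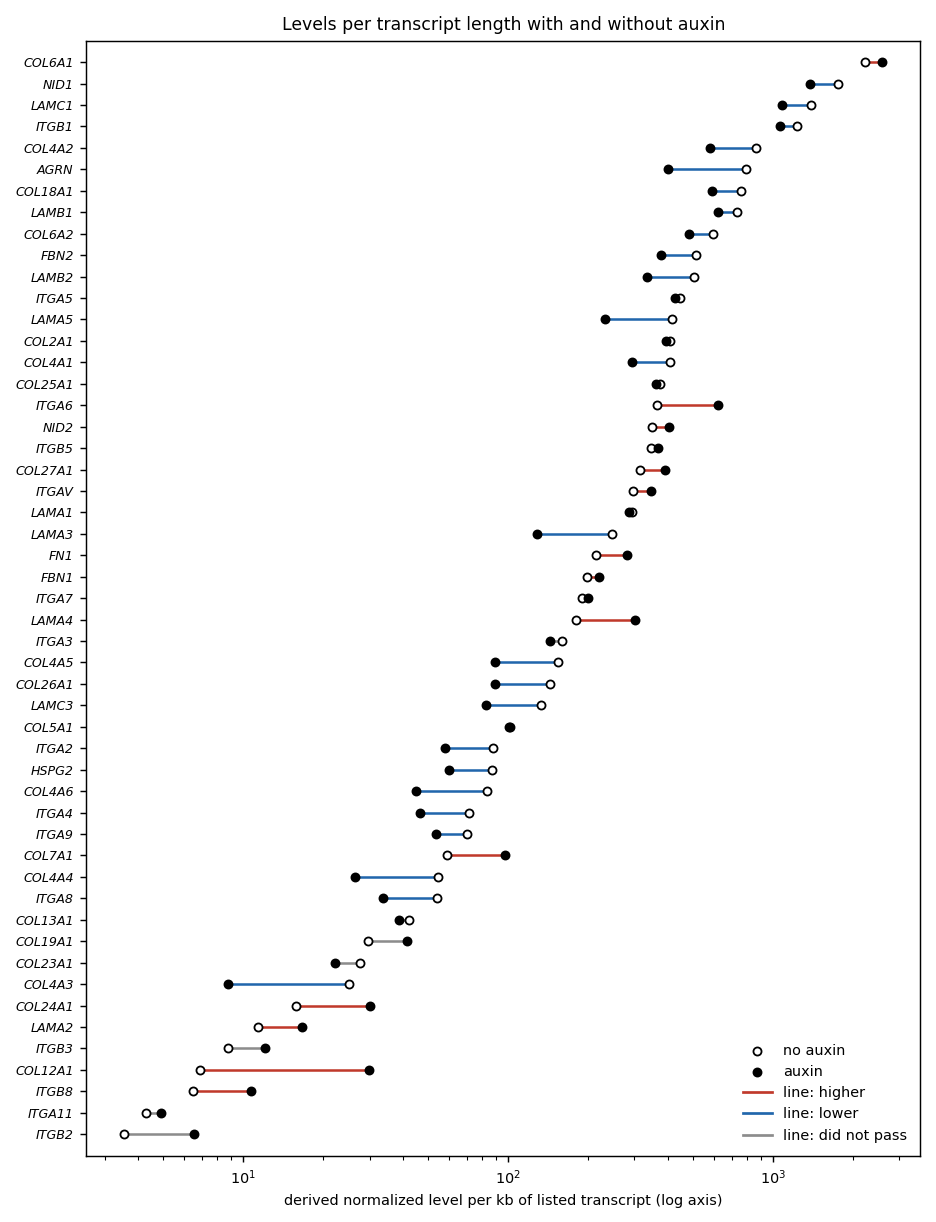
Derived normalized level per kilobase of listed transcript (horizontal, log axis) of each of the 51 genes without auxin (open) and with auxin (filled), ordered by the level without auxin, with lines coloured by the test. COL6A1, NID1, LAMC1 and ITGB1 lead in both groups, and LAMA4 and COL19A1 are set against short transcript models.

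Of 15 integrin chains 3 rose, 5 fell and 7 did not pass, with a median log2 fold change of 0.07. Of protein-coding genes 28% rose and 31.9% fell. ITGA6, an alpha chain that binds laminins with ITGB1 or ITGB4, rose from 2049 without auxin to 3485 with auxin (1.70-fold, log2 0.77 ± 0.069 with adjusted p 1.41e-27 per the authors' deposited table), and per kilobase it went from rank 17 to rank 6 of the 51. Of the chains known mainly as laminin receptors, 2 others did not pass, with ITGA3 at 0.904-fold (adjusted p 0.121) and ITGA7 at 1.05-fold (adjusted p 0.521), per the authors' deposited table. ITGA2, a chain of a collagen receptor that also binds laminins, fell from 689 to 455 (log2 -0.60 ± 0.10 with adjusted p 1.29e-08 per the authors' deposited table). The collagen-binding chain ITGA11 had a mean level of 47 and did not pass (adjusted p 0.579 per the authors' deposited table).

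Among the alpha chains that bind the RGD sequence, ITGA5, the fibronectin receptor chain, had the highest level per kilobase and did not pass (0.964-fold with adjusted p 0.482 per the authors' deposited table). ITGAV, which binds vitronectin and activates latent TGF-beta, rose from 2089 to 2433 (log2 0.22 ± 0.067 with adjusted p 0.00242 per the authors' deposited table). ITGA8, a receptor for nephronectin in kidney development, fell from 352 to 220.1 (log2 -0.68 ± 0.12 with adjusted p 2.23e-08 per the authors' deposited table). The related chains ITGA4 and ITGA9 fell too. ITGA4, which binds fibronectin and VCAM1, was at 483 and 315 (log2 -0.62 ± 0.11 with adjusted p 2.55e-08 per the authors' deposited table). ITGA9 was at 159.5 and 122 (log2 -0.38 ± 0.16 with adjusted p 0.0317 per the authors' deposited table).

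Among the beta chains ITGB1, which pairs with most of the alpha chains above, had the highest level per kilobase and fell from 4869 to 4201 (log2 -0.21 ± 0.057 with adjusted p 0.000484 per the authors' deposited table). ITGB5, a partner of ITGAV, did not pass (1.06-fold with adjusted p 0.269 per the authors' deposited table). ITGB8, which with ITGAV activates latent TGF-beta, rose from 58.1 to 95.9 (log2 0.72 ± 0.22 with adjusted p 0.00204 per the authors' deposited table). Of 8 beta chains 5 were measured, and among these 5 ITGB8 alone rose. ITGB4, named above as a partner of ITGA6, was not analysed here. ITGB3 and the leukocyte chain ITGB2 had mean levels of 62 and 16 and did not pass (1.38-fold and 1.83-fold, adjusted p 0.065 and 0.0867 per the authors' deposited table). ITGB3 passed when the fold changes were centred (adjusted p 0.0486).

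The 51 genes are long. Their median listed span was 108556 bases, against 27942.5 for protein-coding genes. Of 27 members with a span of at least 100000 bases, 15 (55.6%) fell and 5 (18.5%) rose in the authors' deposited table, and of all 2188 protein-coding genes of that span 39.1% fell and 23.8% rose. Among protein-coding genes at a mean level of 100 or more the median log2 fold change was 0.04 for spans under 10000 bases, -0.03 from 10000, -0.06 from 30000 and -0.10 from 100000. Long genes as a whole thus fell more often than they rose, and the part of gene length in the changes of the 51 genes was not tested. In GENCODE 29, 34 members overlap another gene on the opposite strand and 15 overlap one on the same strand. A protein-coding gene on either strand is overlapped by 10 members. The kit was directional, but whether strand was used in counting is not known here. Strand cannot separate overlaps on the same strand.

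Genes that make, cut or bind the matrix were read from 5 lists. For collagen folding, secretion and cross-linking 30 of 32 genes were measured, 8 rose and 10 fell, and the median log2 fold change was -0.00. LOXL2, a lysyl oxidase that cross-links collagen, among others type IV, was at 3.30-fold (log2 1.72 ± 0.094 with adjusted p 5e-73 per the authors' deposited table), and P4HA3, a prolyl hydroxylase subunit, at 2.11-fold with a mean level of only 25 (adjusted p 0.00609 per the authors' deposited table). ADAMTS2, which removes the amino-terminal propeptide of fibrillar procollagens, was at 0.427-fold (log2 -1.23 ± 0.089 with adjusted p 3.99e-42 per the authors' deposited table). COLGALT2, a collagen galactosyltransferase, was at 0.525-fold (adjusted p 5.49e-14 per the authors' deposited table).

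Matrix proteases and inhibitors had 19 of 33 genes measured, with 10 higher and 3 lower and a median of 0.25. TIMP3, an inhibitor of metalloproteinases that is bound in the matrix, was at 6.47-fold (mean level 5965) per the authors' deposited table, where its p is listed as 0. SERPINE2, an inhibitor of thrombin and urokinase, was at 3.66-fold (log2 1.87 ± 0.071 with adjusted p 3.03e-149 per the authors' deposited table). Both of these inhibitors rose. The 2 largest falls, RECK and ADAM9, were at 0.636-fold and 0.827-fold (adjusted p 0.000385 and 0.000187 per the authors' deposited table). Other matrix proteins had 22 of 41 measured, with 8 higher and 7 lower and a median of 0.11. THBS1, thrombospondin 1, was at 3.77-fold (mean level 75), and SMOC1, a relative of SPARC, at 2.49-fold (adjusted p 2.9e-15 and 1.94e-46 per the authors' deposited table). NPNT (nephronectin), a ligand of the integrin chain ITGA8, was at 0.441-fold and THBS4 at 0.538-fold (adjusted p 2.37e-14 and 1.1e-09 per the authors' deposited table). NPNT and its receptor chain thus both fell.

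**Figure D5:**
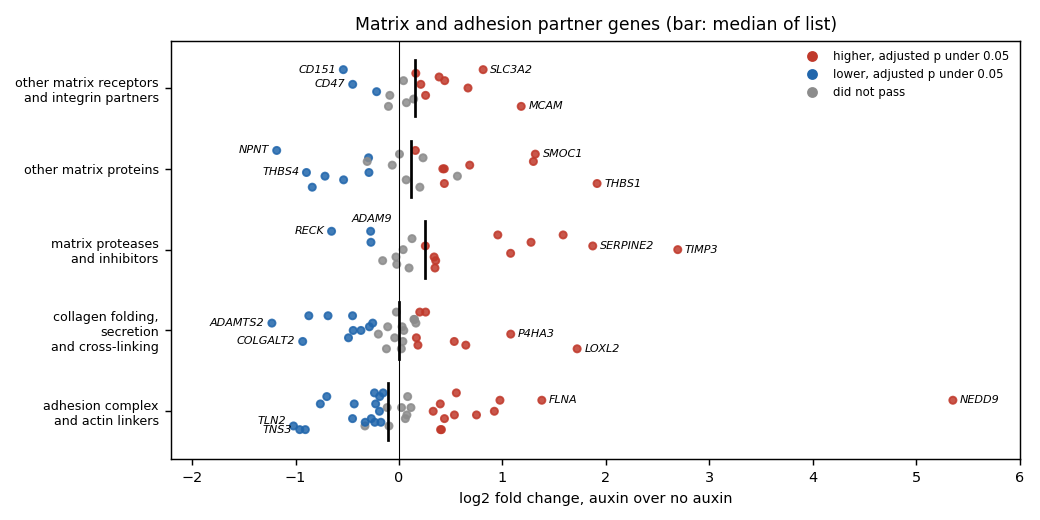
Log2 fold change of each measured gene (points) in 5 lists of matrix and adhesion partners, coloured by the test, with the list median (bar) and the 2 largest rises and falls of each list named. NEDD9 lies apart at 5.35, and the list medians run from -0.11 to 0.25.

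The list of the adhesion complex and actin linkers was measured in 36 of 36 genes, with 12 higher, 16 lower and a median of -0.11. NEDD9, a scaffold of focal adhesions, was at 40.9-fold, from a derived level of 46.1 without auxin to 1886 with auxin (log2 5.35 ± 0.15 with adjusted p 9.77e-278 per the authors' deposited table). FLNA (filamin A), which cross-links actin and binds integrin tails, was at 2.60-fold and a mean level of 26689 (log2 1.38 ± 0.059 with adjusted p 3.51e-120 per the authors' deposited table). Both of these genes rose. TLN2, a talin, and TNS3, a tensin, both of which bind integrin beta tails, were at 0.493-fold and 0.514-fold (adjusted p 4.94e-40 and 1.66e-34 per the authors' deposited table). Of 16 measured genes among other matrix receptors and integrin partners (21 in the list) 8 rose and 3 fell, with a median of 0.15. MCAM, which binds LAMA4-containing laminin, and SLC3A2, which associates with ITGB1, were at 2.27-fold and 1.76-fold (adjusted p 2.59e-54 and 2.29e-30 per the authors' deposited table). CD151, a tetraspanin that binds the laminin-binding integrins, and CD47 were at 0.689-fold and 0.733-fold (adjusted p 6.53e-13 and 8.33e-06 per the authors' deposited table). As for the members, these shares stand beside 27.8% higher and 28.9% lower of all listed genes.

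Markers of cell types were read from the same table. Of 6 kidney markers 4 were listed, with summed derived levels of 1200.3 without auxin and 1384 with auxin. They did not move together, since PAX2 fell (0.696-fold), EMX2 and LHX1 rose (1.88-fold and 5.39-fold) and WT1 did not pass (1.06-fold), per the authors' deposited table. Of 6 epithelial markers 4 were listed, at 4243 and 5431, of which KRT8 and KRT18 rose (1.77-fold and 1.24-fold) and EPCAM and CDH1 did not pass (1.01-fold and 1.05-fold), per the authors' deposited table. The 1 listed fibroblast marker of 6, PDGFRA, was at 111.1 and 171 and rose, the 1 listed endothelial marker of 6, KDR, was at 47.2 and 1179 and rose, and the 1 listed blood marker of 6, HBB, had a mean level of 1 and did not pass. Of 6 neuronal markers 4 were listed, at 2739 and 22303, and all 4 rose. The part of the markers in the changes of the 51 genes was not tested. In bulk RNA, a change in the share of cells expressing a gene and a change in RNA per cell cannot be told apart.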

How the data were processed

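RNA-seq was read from HEK293T INTS8-AID cells, 3 libraries without and 3 with 100 µM auxin. Per the labels' protocols, RNA was depleted of ribosomal RNA and made into directional libraries. The authors used STAR 2.7.3a and DESeq2 with builds hg38 and dm6, per the submitters' processing notes, which give no roles. The counting tool, annotation and model formula are not given in the sources used here.

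The file was a table of the authors' own comparison. Per the file headers it gives a mean normalized level (used as a score, since the authors rounded it to whole numbers), a ratio (fold change), its log2, and p-values raw and adjusted. The deposited log2 expression column is the log2 level per kilobase of listed transcript in the numerator group of the fold change: it differed from that derived value by at most 0.0165 over 12195 genes whose mean level was 100 or more. A gene was called at 0.05 by the authors' deposited DESeq2 adjusted p, which matched Benjamini-Hochberg adjustment over 14479 genes with a largest relative difference of 0.00777. Columns of values per library that were not used numbered 0. Depth is unknown, so no counting interval is given.

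Group levels assume groups of equal size, and standard errors a two-sided Wald test. The members and lists were chosen with earlier results of these data known. Members past 0.05 with a mean level of at least 20, the most abundant member of each role group, the type IV pairs, and the 2 largest rises and 2 largest falls of each partner list were named, and the members that did not pass were named as well. Alternatives were a stricter adjusted p (0.01), a fold limit of 1.5, mean levels of at least 10 and 100, centring on the median of genes at a mean level of 100 or more, adjustment over every gene or over protein-coding genes, a Wald test with 1.5-fold as its null, and, added after the data were seen, models of at least 1000 bases. In simulated data of this comparison over 14423 genes, 99.5% of the genes given a log2 change of 1 were recovered. That change is large beside the median derived standard error of all listed genes, 0.09 on the log2 scale. Because the spread between libraries is unknown, the recovery checks the calculation only and does not measure the power of the comparison. Transcript models and overlaps came from GENCODE 29, and promoter windows from RefSeq. Python 3.11.15, numpy 2.4.6, pandas 2.3.3, scipy 1.17.1 and matplotlib 3.10.9 were used.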

Additional observations from a re-analysis of the deposited data

How the results depend on the processing

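Against 13 members that rose and 24 that fell, the counts were 6 and 12 with a fold limit of 1.5. They were 1 and 5 in a Wald test against a fold of 1.5, where COL12A1 rose and COL4A3, COL4A4, LAMA3, LAMA5 and AGRN fell. Both alternatives ask for a larger change by construction. The shares of all listed genes that pass them were not computed, so these counts have no background to stand beside. With an adjusted p under 0.01, mean levels of at least 10 or 100, centring (which subtracted a median of -0.0302), adjustment over every gene or protein-coding genes alone, or models of at least 1000 bases, 12 to 14 members rose and 23 or 24 fell. FBN1 and ITGA9 did not pass 0.01, and ITGB3 passed when centred (adjusted p 0.0486). The counts of 1 rise and 2 falls of at least 2-fold held under every alternative run. For some this was fixed in advance, since a limit of 1.5-fold cannot alter counts at 2-fold. A mean level of at least 10 removed no member. Only centring alters the fold changes, so under the other alternatives no direction could turn. Under centring the direction of none of the 51 members turned. No paired analysis was possible because the table holds no values per library, and leaving out a library, another normalization or a filter on counts was not run for the same reason. Changes of members with low mean levels, such as ITGB2, ITGA11 and COL19A1, were poorly resolved, with derived standard errors of 0.45, 0.27 and 0.37 on the log2 scale.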
